A study of Hakea prostrata with 26 samples.

Results

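This account follows 33 of the 25047 assembled genes of Hakea prostrata, a Proteaceae shrub of phosphorus-poor soils. All 33 had a level at least 4-fold higher in older than in young cluster roots, and wild leaf stage means within a set span. They were chosen on their measured levels, taken as log2(CPM + 1), where CPM, the usual count per fixed library size, was taken with library sizes adjusted by TMM, a scaling that allows for differences in composition, over all 26 libraries. A gene was taken when the lower of its levels on cluster root days 7 and 12 was at least 4, when that level exceeded the highest of days 0, 1 and 4 by at least 2 (a 4-fold difference), and when its 5 wild leaf stage means spanned under 1.5. The level and leaf conditions alone were met by 4824 genes, and the late rise left 33 of them, so the limit of 150 genes was not reached. Without the leaf condition, 68 genes met the level and rise conditions. The cluster root course and the wild leaf profile are therefore given as a description, with no test.

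Cluster roots are dense tufts of short-lived rootlets that many Proteaceae form when phosphate is scarce. In this family they grow, mature, release carboxylates and phosphatases that free soil-bound phosphate over a brief period, and then senesce. The study compared stages of leaf growth in Hakea prostrata, and its root libraries come from plants in hydroponics. The IDs are not paired with gene names in the deposited file, so the genes are given by Trinity ID and without a role.

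The cluster roots were sampled on days 0, 1, 4, 7 and 12 with 1 library per day, and the labels give neither what the days are counted from nor the phosphate (Pi) supply of these plants. Roots labelled white root and mature leaves came from hydroponic plants supplied with 1, 10 or 50 uM Pi, with 1 library per tissue and supply. Wild leaves came from untreated plants growing at a field station, in 5 groups (stages 1, 2, 3, 4 and M) of 3 libraries each, the 3 of best RNA quality among those taken at a stage. The labels give no genotype, and do not say what stage M stands for. Total estimated counts were 8163081 to 10857613 in cluster roots, 9486439 to 11508234 in white roots, 17130939 to 20283815 in mature leaves and 1517487 to 11418655 in wild leaves. In whole roots or leaves, a change in the share of a cell type and a change of RNA per cell cannot be told apart.

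Together the 33 genes took up 0.0344% of the estimated counts on day 0, 0.0474% on day 1, 0.0653% on day 4, 0.508% on day 7 and 1.61% on day 12. White roots gave them 0.347% at 1 uM Pi, 0.170% at 10 uM and 0.226% at 50 uM. In mature leaves the share was 0.0125 to 0.0174%, and in the wild leaves 0.00382 to 0.0109%. These shares, and the order of the genes by level, are per read and not per length of transcript.

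**Figure D1:**
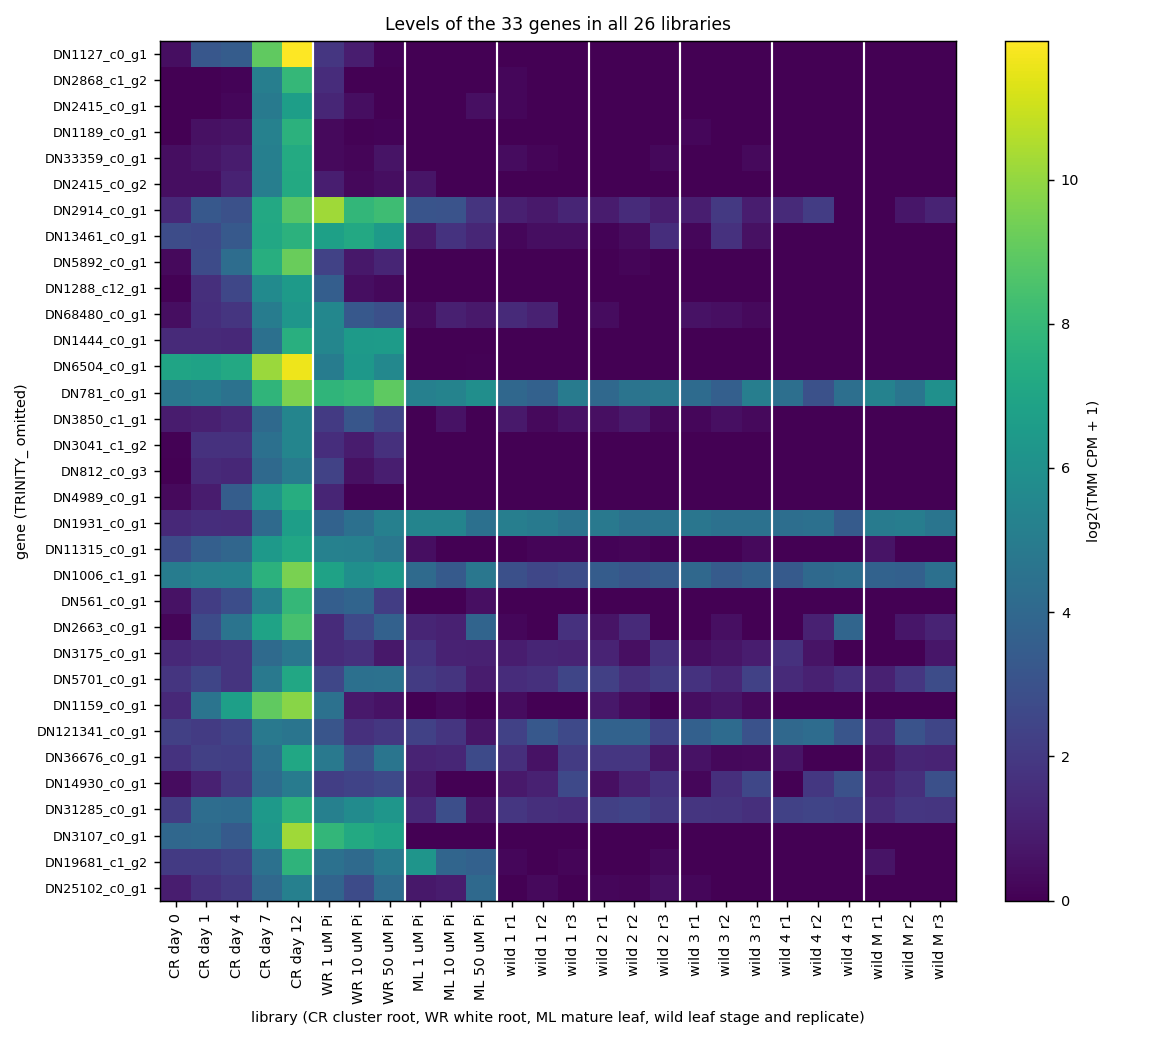
Level of each of the 33 genes (rows, ordered by the size of the late rise) in each of the 26 libraries (columns), as log2(TMM CPM + 1) on the colour scale. All rows brighten at cluster root day 7, and 20 rows stay under 1 CPM in all 15 wild leaf libraries.

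TRINITY_DN1127_c0_g1 had the largest late rise and was also the most abundant of the genes on day 12. It stood at 0.374 CPM on day 0, 8.45 on day 1, 10.05 on day 4, 519 on day 7 and 3886 on day 12. Counting error alone gives 95% Poisson intervals of 8.38 to 11.9 CPM on day 4 and 507 to 532 CPM on day 7, which cover no spread between plants. The day 7 level was 51.7 times the highest of the first 3 days, and the gene by itself made up 25.9% of the summed CPM of the 33 genes on day 12.

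TRINITY_DN2868_c1_g2 had the second largest rise and was barely detected before it. It had no count on days 0 and 1 and 1 count on day 4, against 33.01 CPM (412 counts) on day 7 and 243 CPM (2126 counts) on day 12. Set against 3 counts in the day 0 library, day 12 was at least 1296-fold higher. TRINITY_DN6504_c0_g1, the second most abundant gene on day 12, was in contrast well expressed throughout, at 123, 117 and 148 CPM on days 0, 1 and 4 and at 1136 and 3168 CPM on days 7 and 12. The 2 most abundant genes held 47.0% of the summed CPM of the 33 on day 12.

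The step that the rule selects, from day 4 to day 7, was at least 2-fold in 33 of 33 genes, where 5.60% of 11725 genes with at least 100 counts on either day rose and 4.58% fell so far; the rule fixes this count. Day 7 stood between 4.64 and 421 times the highest early level, with a median of 7.72. The rule does not set the order of days 7 and 12. Day 12 exceeded day 7 at least 2-fold in 25 of the 33 genes, and no gene fell 2-fold. Over all 11451 genes with at least 100 counts on either day, 12.2% were at least 2-fold higher and 16% at least 2-fold lower on day 12, and among the 4824 genes that met the level and leaf conditions these shares were 7.52% and 4.29%. Both days were required to be high, each is a single library, and no test of this step can be made.

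The step to day 12 differed widely among the genes. TRINITY_DN3107_c0_g1 had the steepest one, with 14.8, 16.1 and 9.26 CPM on days 0, 1 and 4, 74.8 CPM on day 7 and 1186 CPM on day 12, a ratio of 15.8 between the last 2 days. TRINITY_DN19681_c1_g2 followed with 3.06, 3.11 and 3.93 CPM, then 20.8 and 212 CPM, a ratio of 10.2. At the other end, TRINITY_DN121341_c0_g1 had 26.9 CPM on day 7 and 23.96 CPM on day 12, and TRINITY_DN13461_c0_g1 had 143 and 202 CPM. The median ratio of day 12 to day 7 was 3.08.

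Some of the genes had begun to rise within the first 4 days. Day 1 was at least 2-fold above day 0 in 4 of the 9 genes with at least 100 counts on either day and 2-fold below in 0, where 4.55% and 1.66% of all such genes were, and day 4 above day 1 in 4 of 13 and below in 0 (2.42% and 0.757%). Of the 12 genes with at least 100 counts on day 0 or day 4, 7 were at least 2-fold higher on day 4 than on day 0 and 0 at least 2-fold lower, where 8.91% and 6.29% of 12376 genes were. All 7 had under 100 counts on day 0, as had the 4 that rose by day 1, so they entered only through the later day. The same holds for most of the 4 that rose from day 1 to day 4. The rule also holds days 0, 1 and 4 below the late level, so these shares are not evidence about the set. TRINITY_DN1159_c0_g1, whose white roots were among the lowest relative to its late cluster roots, climbed at each sampling, from 1.62 CPM on day 0 through 22.8, 105 and 508 CPM to 898 CPM on day 12. In the other direction, TRINITY_DN1444_c0_g1 stayed at 1.68, 1.71 and 1.57 CPM before reaching 20.3 CPM on day 7 and 185 CPM on day 12.

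The list ends at a difference of 2 on the log2 scale. Just inside it were TRINITY_DN19681_c1_g2 with a difference of 2.15 and TRINITY_DN25102_c0_g1 with 2.07. Just outside were TRINITY_DN20938_c0_g2 with 1.98, whose level was 26.3 CPM on day 4 and 106 CPM on day 7, and TRINITY_DN1672_c0_g2 with 1.97, at 8.40 and 38.6 CPM. The values on both sides of the limit are close, and membership near it turns on small differences.

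**Figure D2:**
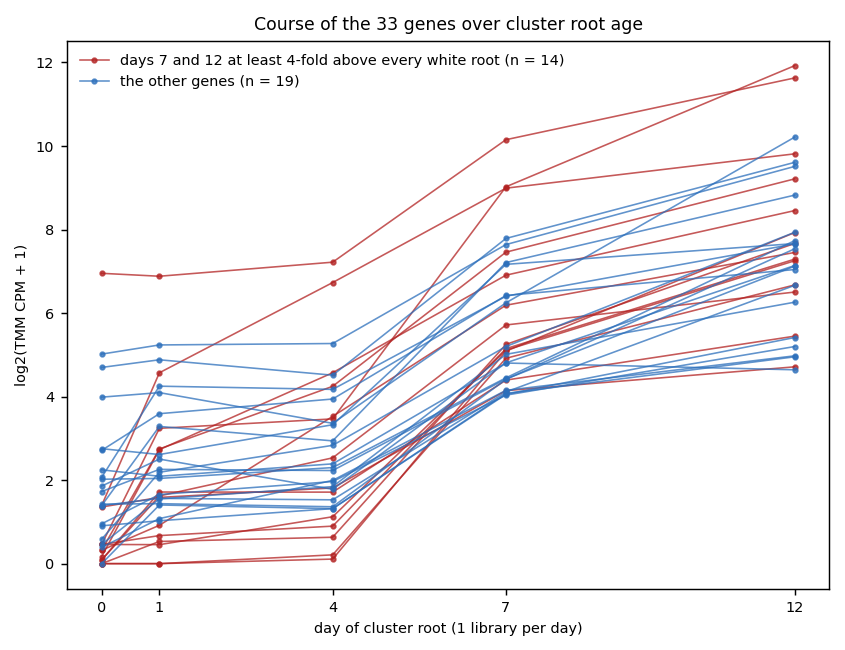
Level of each of the 33 genes as log2(TMM CPM + 1) against the day of the cluster root, 1 line per gene and 1 library per day. Red lines are the 14 genes whose days 7 and 12 were both at least 4-fold above every white root library, blue lines the other 19. All lines step up between days 4 and 7, and 25 rise at least 2-fold again by day 12.

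White roots, which played no part in choosing the genes, differed in their position from gene to gene. For 16 of the 33 genes all 3 white root libraries lay above all 3 early cluster roots, and for 1 gene they lay below. The background shares, over 14291 genes with at least 100 counts in a cluster or white root library, were 14.9% and 13.1%. For 23 genes all white roots lay below both late cluster roots (background 23.4%), for 0 above both (background 23.1%), and for 10 the ranges overlapped. In 6 genes the white roots lay between the 2 stages, above every early and below every late cluster root (background 2.30%). Among the 4824 genes that met the level and leaf conditions, 34.6% had all white roots below the late cluster roots and 10.1% above. Late cluster root levels were selected to be high and early ones to be low, so these counts describe the 33 genes and test nothing.

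In 14 of the 33 genes the late cluster roots were at least 4-fold above the highest white root, where 1.22% of the 14291 genes were, and 1.02% of the 4824. Their mean late cluster root levels ran from 20.9 to 2203 CPM with a median of 121, against mean white root levels of 0.119 to 52.6 CPM with a median of 1.38. TRINITY_DN1127_c0_g1 is the clearest case: with 519 and 3886 CPM in late cluster roots it had 2.74 CPM at 1 uM Pi, 0.941 at 10 uM and 0.0696 at 50 uM in white roots, and its lower late level was 189.7 times the highest of these. TRINITY_DN1189_c0_g1, singled out after its values were seen, was at 37.0 and 202 CPM in late cluster roots and at 0.223, 0.0627 and 0.0696 CPM in white roots, which are 4, 1 and 1 counts. TRINITY_DN6504_c0_g1 was the only gene whose early cluster roots, at 123, 117 and 148 CPM, were all above its white roots, at 30.7, 80.5 and 46.5 CPM. Of these 14 genes, 12 stayed under 1 CPM in all mature leaf libraries and 12 in all wild leaf libraries, and 11 had a single isoform. Among the other 19 genes these counts were 7, 8 and 6. The 4-fold limit cuts a continuous range, and the nearest ratios below and above it were 3.90 and 4.83. A single isoform was seen in 53.3% of all genes and in 28.2% of the 4824. The shares of all genes that low in leaves were not computed, so the leaf counts describe the 33 genes only.

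The other 19 genes had mean levels of 22.9 to 630.4 CPM with a median of 103 in late cluster roots, against 1.83 to 578 CPM with a median of 21.7 in white roots. TRINITY_DN2914_c0_g1 had 147 and 452 CPM in late cluster roots and 1199, 237 and 298 CPM in white roots at 1, 10 and 50 uM Pi, which overlap, while its early cluster roots were at 1.62, 8.75 and 6.67 CPM. TRINITY_DN1444_c0_g1 had 20.3 CPM on day 7 and 185 CPM on day 12, with its white roots between them at 44.1, 88.0 and 91.8 CPM. TRINITY_DN3107_c0_g1 had 74.8 and 1186 CPM on those days, again with the white roots, at 234, 150.3 and 114 CPM, between them. In these 3 genes every white root lay above every early cluster root.

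**Figure D3:**
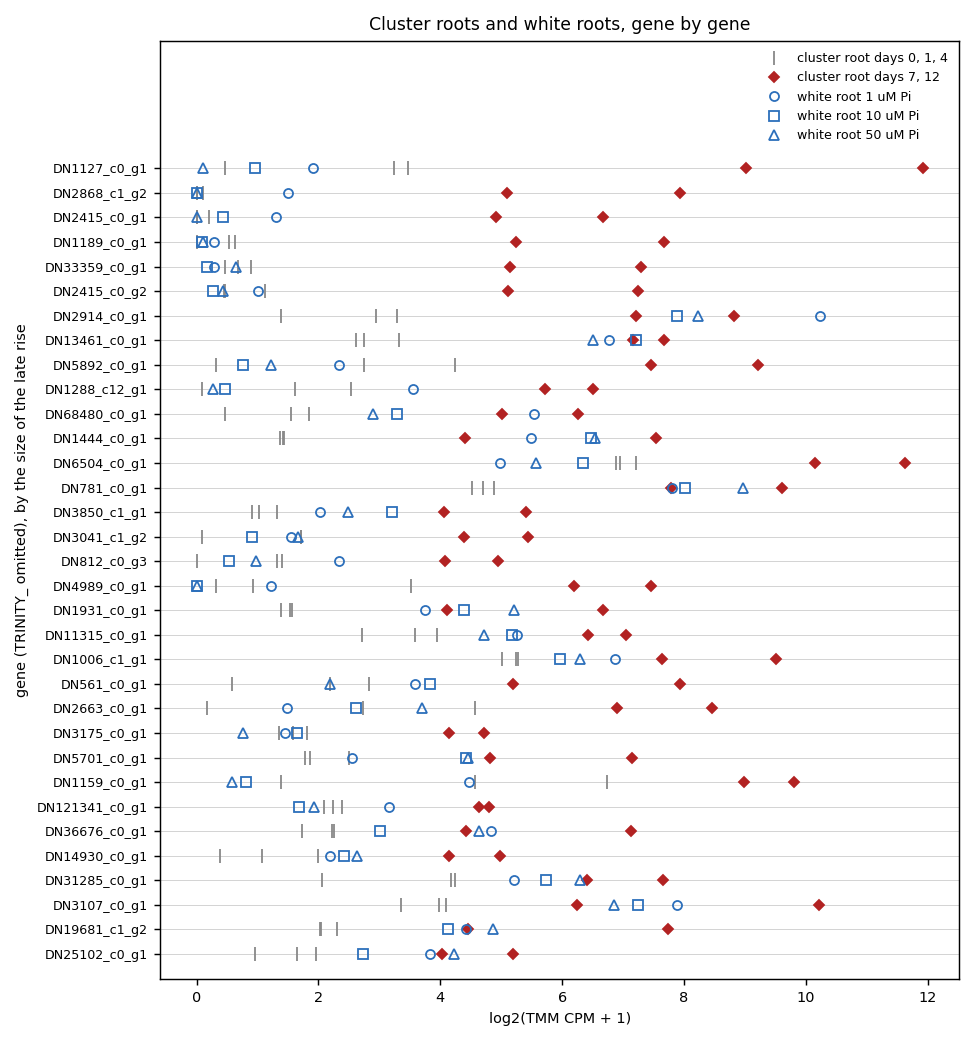
Level of each gene as log2(TMM CPM + 1) in early cluster roots (grey bars, days 0, 1 and 4), late cluster roots (red diamonds, days 7 and 12) and white roots (blue open symbols by Pi supply), 1 row per gene. In 16 rows all blue symbols lie to the right of the grey bars, and in 14 rows both red diamonds lie at least 4-fold in CPM above every blue symbol.

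White roots and mature leaves, both from hydroponics, differed in most of the genes that could be tested, and each gene that passed was higher in white roots. Of the 33 genes, 24 passed the low count filter in these 6 libraries, and 18 of those were higher in white roots, 0 were lower and 6 did not pass (edgeR quasi-likelihood test with log10 Pi as a term, adjusted p under 0.05 over 19418 genes). Over all tested genes 28.2% were higher and 22.7% lower. The median log2 fold change of the 24 was 4.65 (4.56 with genes at 0 in leaf set to their lower bound), against 0.28 over all tested genes. A gene near 0 in leaves enters this test only through its white root counts, so the count and the median are not evidence about the set, and 9 genes were too low in both tissues to be tested. Without the white root library at 50 uM Pi, 11 genes passed, all higher, and without the mature leaf library at 50 uM Pi 19 were higher and 1 lower.

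TRINITY_DN3107_c0_g1 and TRINITY_DN1444_c0_g1 were well detected in white roots and had no count in mature leaves, so that only a lower bound of the fold can be given and the genes cannot be ranked by it. TRINITY_DN6504_c0_g1, with 30.7, 80.5 and 46.5 CPM in white roots, had 1 count over the 3 mature leaf libraries. With 234, 150.3 and 114 CPM in white roots, TRINITY_DN3107_c0_g1 had no count in any of the 3 mature leaf libraries, and was at least 2952-fold higher in white roots against 3 counts over the leaf libraries (edgeR, adjusted p = 5.99e-05). TRINITY_DN1444_c0_g1, with 44.1, 88.0 and 91.8 CPM in white roots, likewise had no count in mature leaves and was at least 1260-fold higher (edgeR, adjusted p = 0.000103). Neither had a count in any wild leaf library.

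Among those expressed in both organs the gap was smaller. TRINITY_DN781_c0_g1 had 224, 257 and 500 CPM in white roots and 35.8, 39.2 and 59.1 CPM in mature leaves (a log2 difference of 2.86, SE 0.26; adjusted p = 0.000271 with edgeR). TRINITY_DN1006_c1_g1 had 116, 61.3 and 77.5 CPM in white roots and 16.2, 9.41 and 25.6 CPM in mature leaves (a log2 difference of 2.34, SE 0.44; adjusted p = 0.00518 with edgeR). The ranges of the 2 tissues did not overlap in either gene. TRINITY_DN1931_c0_g1 did not pass, with 12.5, 20.1 and 36.0 CPM in white roots and 40.7, 40.6 and 20.2 CPM in mature leaves (a log2 difference of -0.63, SE 0.48; adjusted p = 0.303 with edgeR). These 3 genes were singled out after their values were seen.

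**Figure D4:**
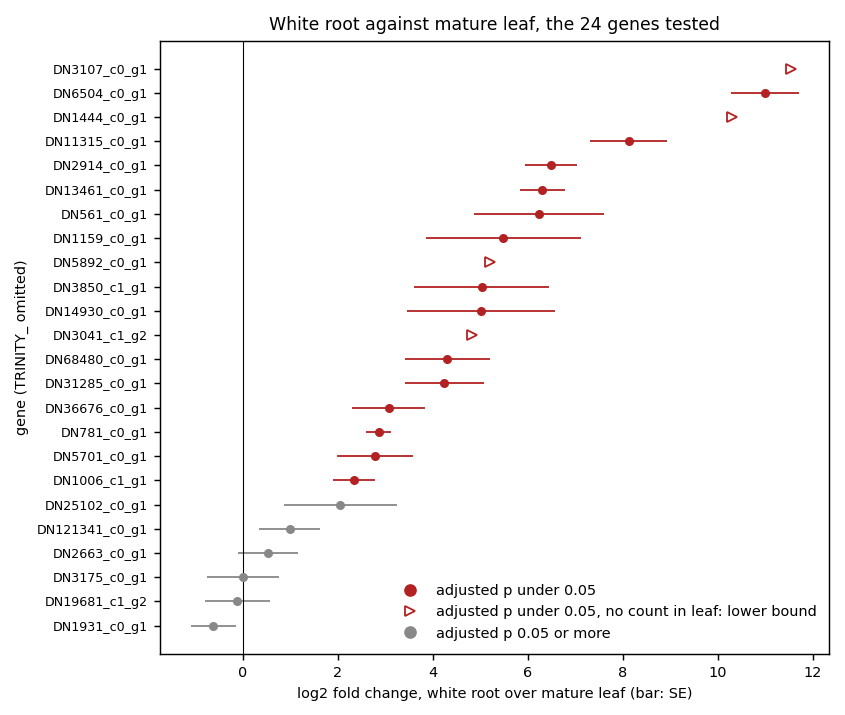
Log2 fold change of white root over mature leaf with its SE for the 24 of the 33 genes that could be tested, ordered by value. Red marks passed at an adjusted p under 0.05, triangles are lower bounds for genes with no count in mature leaf, and grey marks did not pass; the 18 red genes all lie right of 0.

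Most of the 33 genes met the limit on the wild leaf span by being near absent in wild leaves. In 10 genes all 15 wild leaf libraries were at 0, which allows a level of up to 0.0413 CPM over the pooled depth, and in 20 genes no wild leaf library reached 1 CPM. In mature leaves of hydroponic plants 11 genes were at 0 in all libraries and 19 stayed under 1 CPM in each. The median level in these 3 libraries was 0 to 0.272 CPM for the 33 genes. For the 4824 genes that met the level and leaf conditions it was 42.9 to 44.2 CPM. How many of all genes were at 0 or under 1 CPM in leaves was not computed, so these counts describe the 33 genes only. A gene near 0 has a small span by construction, so flatness in leaf says little for these genes.

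Of the remaining genes, 7 had a mean of at least 1 CPM at every wild leaf stage, and 2 of those, TRINITY_DN781_c0_g1 and TRINITY_DN1931_c0_g1, of at least 10 CPM. TRINITY_DN1931_c0_g1 averaged 27.9 ± 5.12, 23.7 ± 3.39, 22.0 ± 2.00, 16.2 ± 5.62 and 28.7 ± 4.22 CPM at stages 1, 2, 3, 4 and M (SD, n = 3 each). Its early cluster roots, at 1.62, 1.95 and 1.88 CPM, lay below all 15 wild leaf libraries, and its day 7 value of 16.3 CPM lay within their range of 9.79 to 32.8 CPM. It was the only 1 of the 33 with that order, and in the other 32 both late cluster roots exceeded all wild leaves. TRINITY_DN781_c0_g1 averaged 18.9 ± 9.56, 21.5 ± 5.35, 20.4 ± 11.2, 15.2 ± 7.40 and 41.6 ± 19.3 CPM over the same stages, against 220 and 780 CPM in late cluster roots. The limit on the span did not make every course flat. TRINITY_DN1006_c1_g1, named after its values were seen, averaged 5.76, 9.30, 12.4, 14.2 and 14.6 CPM over these stages. TRINITY_DN121341_c0_g1 averaged 5.94, 9.66, 11.8, 13.7 and 4.54 CPM.

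Hydroponic mature leaves and wild leaves of stage M could be compared in a minority of the genes. Only 11 of the 33 passed the low count filter in these 6 libraries, and 2 of them were higher in the hydroponic leaves, 0 were lower and 9 did not pass (edgeR quasi-likelihood test, adjusted p under 0.05). Over 14820 tested genes 18.9% were higher and 15.7% lower. Both called genes had at most 2 counts in any stage M library and entered the test only through the hydroponic leaves. Their number and direction are therefore not evidence about the set. TRINITY_DN19681_c1_g2 had 74.6, 14.0 and 12.1 CPM in hydroponic leaves at 1, 10 and 50 uM Pi, against 0.562, 0 and 0 CPM in the stage M replicates (a log2 difference of 7.20, SE 1.32; adjusted p = 0.00599 with edgeR, and 0.0542 when stage M replicate 1 is left out). The 0.562 CPM is 1 count, the only one at stage M, so the size of this fold is uncertain (a log2 difference of 11.5 without that replicate). The hydroponic leaf at 1 uM Pi stood above the other 2, and no wild leaf library of any stage exceeded 0.562 CPM. TRINITY_DN2914_c0_g1, named after its values were seen, had 7.46, 7.33 and 2.45 CPM in hydroponic leaves and 0, 0.672 and 1.299 CPM at stage M (a log2 difference of 3.11, SE 0.93; adjusted p = 0.0314 with edgeR). The stage M values of TRINITY_DN2914_c0_g1 are 0, 1 and 2 counts, so its fold is uncertain too. Without stage M replicate 1 neither gene passed. Without the hydroponic leaf at 1 or 10 uM Pi or stage M replicate 2 or 3 only TRINITY_DN19681_c1_g2 did. Growth place, plants and phosphate supply differ together between these groups and cannot be told apart.

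Pi supply moved none of the 24 tested genes past the threshold in white roots. In a fit of tissue, log10 Pi and their product over the 6 libraries (2 residual degrees of freedom), 0 of the 24 had a slope that passed in white roots, 0 in mature leaves and 0 a difference between the slopes (edgeR, adjusted p under 0.05). Over all 19418 genes 1, 36 and 0 passed (0% rising and 0.00515% falling in white roots, 0.18% and 0.00515% in mature leaves, 0% and 0% for the difference). At an unadjusted p under 0.05 these were 8, 6 and 8 of the 24 genes, beside 1219, 3537 and 2315 of all genes. Of the 24, 4 had no count in any mature leaf library and entered through white roots alone, so their leaf slope and slope difference could not pass. With DESeq2 0, 4 and 1 of the 33 passed, beside 254, 1054 and 392 of all genes, and with single libraries left out edgeR called 0 to 219 of all genes in mature leaves.

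In mature leaves the 4 that DESeq2 called were TRINITY_DN19681_c1_g2, TRINITY_DN11315_c0_g1 and TRINITY_DN14930_c0_g1 with falling slopes and TRINITY_DN25102_c0_g1 with a rising one. TRINITY_DN11315_c0_g1 had 7, 0 and 0 estimated counts in leaves at 1, 10 and 50 uM Pi and TRINITY_DN14930_c0_g1 had 14, 0 and 0, so these calls rest on a few reads of 1 library. TRINITY_DN25102_c0_g1 had 0.708, 0.855 and 16.1 CPM in leaves at 1, 10 and 50 uM Pi, and 13.3, 5.64 and 17.7 CPM in white roots. For TRINITY_DN19681_c1_g2 the slope was -1.66 log2 units per 10-fold Pi in mature leaves (SE 0.41; DESeq2, adjusted p = 0.00270) and -1.60 with edgeR (SE 0.32; adjusted p = 0.130). Its slope in white roots was higher than in leaves by 1.90 (SE 0.58; DESeq2, adjusted p = 0.0481) and by 1.84 with edgeR (SE 0.46; adjusted p = 0.279). Each slope rests on 3 libraries, 1 per supply.

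The white root library at 1 uM Pi stood out for a subset, a pattern seen in the values and then counted. In 13 of the 33 genes it was at least 2-fold above both other supplies, 9 of them among the 14 genes that were at least 4-fold higher in late cluster roots and 4 among the other 19. Most of these were low: of the 21 genes with at least 100 counts in a white root library, 5 showed the pattern, where 5.56% of 13541 such genes did. Among such genes that met the level and leaf conditions it was 2.55% of 4791. TRINITY_DN1288_c12_g1, TRINITY_DN1159_c0_g1 and TRINITY_DN121341_c0_g1 reached 100 counts only in the 1 uM library, so the count minimum itself favours the pattern. The share of all genes without that minimum was not computed, so the count of 13 describes the 33 genes only. TRINITY_DN1159_c0_g1 had 21.1, 0.753 and 0.488 CPM at 1, 10 and 50 uM Pi, with a slope of -3.39 log2 units per 10-fold Pi (SE 0.89; edgeR, unadjusted p = 0.00825 and adjusted p = 0.470). TRINITY_DN68480_c0_g1 had 45.5, 8.78 and 6.47 CPM, with a slope of -1.70 (SE 0.41; edgeR, unadjusted p = 0.00499 and adjusted p = 0.409). TRINITY_DN2868_c1_g2 had 33 counts at 1 uM and 0 at both other supplies, and TRINITY_DN4989_c0_g1 had 24 counts against 0 and 0. Not all genes went this way: of the 21 genes, 5 were lower and 6 higher at each larger supply, where 14.4% and 13% of the 13541 were, and over all 33 the counts were 7 and 7. TRINITY_DN5701_c0_g1, with 4.86, 20.3 and 20.8 CPM, was highest at the larger supplies. The 1 uM supply is a single library.

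The 33 genes comprised 70 assembled transcripts, and 17 genes had a single isoform. That is 51.5% of them, beside 53.3% of all genes and 28.2% of the 4824 genes that met the level and leaf conditions. In the 16 genes with several isoforms, the isoform that led on day 12 held 49.1 to 98.4% of the gene's estimated counts there, with a median of 65.1%. It also led on day 0 in 7 of the 16 and in all 3 white root libraries in 11. In the 9 genes with another leader on day 0, that library held only 5 to 89 estimated counts of the gene, except 1968 in TRINITY_DN6504_c0_g1. Of the 50 isoforms of these genes that reached 2 CPM on day 7 or 12, 35 were at least 4-fold higher on both days than on any early day. The rule asks this rise of each gene's sum, and the isoforms were kept by their late level. The count is therefore largely fixed by the choice of genes, and no share was computed for isoforms of other genes. Isoforms of a gene share reads, so the split between them is an estimate.

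The leading isoform changed its share most between days 0 and 12 in TRINITY_DN25102_c0_g1 and TRINITY_DN33359_c0_g1, with 0 and 16.7% on day 0 and 89.3 and 96.0% on day 12, but the genes had only 15 and 6 counts on day 0, and in the first the same isoform held 100% on days 1 and 4. A better measured change was seen in TRINITY_DN6504_c0_g1, one of 3 genes picked here after their values were seen. Its isoform i15 was absent on day 0, at 0.906 and 0.557 CPM on days 1 and 4, and at 378 and 1965 CPM on days 7 and 12. Isoform i1 had 120.3, 110.5 and 141 CPM on the first 3 days and 704 and 1031 CPM on the last 2. The share of i15 was thus 33.3% on day 7 and 62.0% on day 12, against at most 0.775% on the early days and 4.85, 0.460 and 0.302% in white roots at 1, 10 and 50 uM Pi.

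In TRINITY_DN1159_c0_g1 the change fell between days 7 and 12. Isoform i14 held 9.39, 9.06, 3.51 and 8.90% of the gene on days 0, 1, 4 and 7 and 55.1% on day 12, going with 45.2 CPM on day 7 and 495 CPM on day 12, while isoforms i7 and i24 had 168 and 215 CPM on day 7 and 123 and 153 CPM on day 12. In TRINITY_DN3107_c0_g1 the isoform that led early lost share: i3 held 92.8% on day 0, 78.3% on day 7 and 49.1% on day 12, while i1 went up to 445 CPM on day 12 beside 11.9 CPM on day 7. In white roots i3 held 59.4% at 1 uM Pi, 90.9% at 10 uM and 93.1% at 50 uM.

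**Figure D5:**
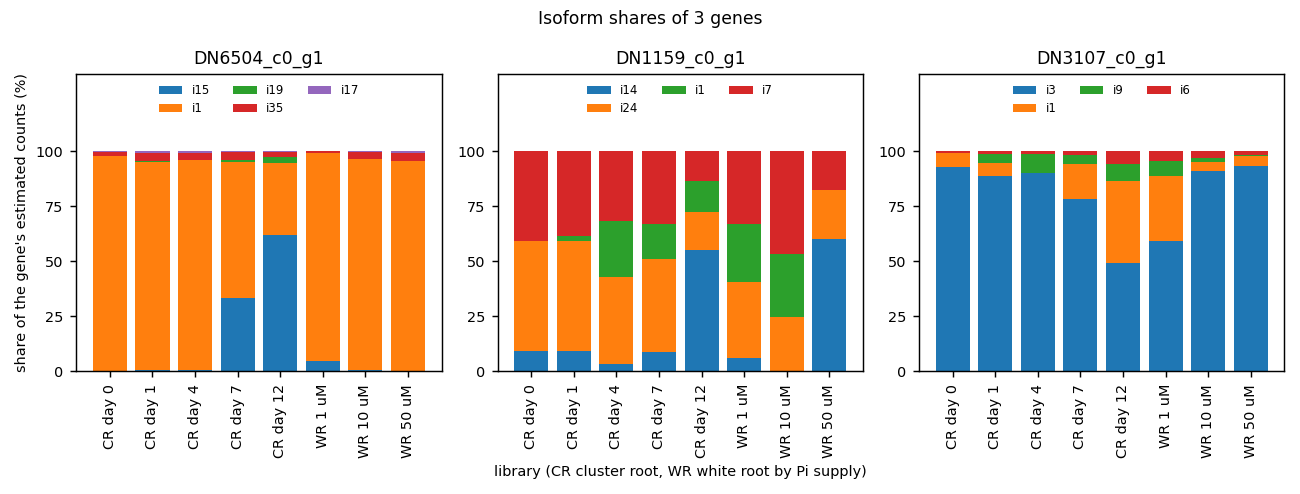
Share of the gene's estimated counts held by each isoform (stacked colours, in %) of 3 genes in the 5 cluster root and 3 white root libraries. Isoform i15 of TRINITY_DN6504_c0_g1 appears on days 7 and 12 with 33.3 and 62.0%, i14 of TRINITY_DN1159_c0_g1 reaches 55.1% on day 12, and i3 of TRINITY_DN3107_c0_g1 drops to 49.1%; the white root bars of TRINITY_DN1159_c0_g1 at 10 and 50 uM Pi rest on few counts.

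The 33 genes fell in 32 Trinity components, groups of genes that the assembler links by shared sequence. Only TRINITY_DN2415_c0 held 2 of them, g1 and g2, with 29.2 and 101 CPM in late cluster roots for g1 and 33.6 and 151 CPM for g2, and both at most 1.18 CPM in early cluster roots. In 4 components there were 7 further genes outside the list, and their courses differed. TRINITY_DN812_c0_g1, beside the listed TRINITY_DN812_c0_g3, had 0.250, 1.26, 0.942, 12.02 and 31.4 CPM on days 0, 1, 4, 7 and 12 and missed the level condition. TRINITY_DN2868_c1_g1 followed its neighbour at a lower level, with no count on days 0, 1 and 4 and 1.60 and 18.5 CPM on days 7 and 12. TRINITY_DN561_c0_g2, next to TRINITY_DN561_c0_g1, went the other way, at 111 CPM on day 7 and 28.8 CPM on day 12, beside 35.7 and 244 CPM for the listed gene. Linked genes can share reads, and how the estimated counts were split between them was not tested.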

How the data were processed

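Per the labels' protocols, libraries were stranded and depleted of plant rRNA. The authors deposited estimated counts per assembled transcript, and kallisto, DESeq2 1.30.1 and Trim Galore 0.6.6 are listed, without role, per the submitters' processing notes. The assembly is not given in the sources used here.

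Estimated counts were summed per Trinity gene, and rounded to whole numbers for tests. TMM factors were 1.07 to 1.48 in cluster roots and 0.439 to 1.33 in wild leaves. Tests used R 4.3.3 and edgeR 4.0.16 (TMM, filterByExpr with minimum count 10 and total 15, robust quasi-likelihood fit, Benjamini-Hochberg over all tested genes, threshold 0.05), with DESeq2 1.42.0 as an alternative. The fits had 3 (tissue and log10 Pi), 2 (with their product) and 4 (hydroponic against stage M leaf) residual degrees of freedom, and were checked on simulated data. The SE of a fold was derived from its F statistic. Poisson intervals (95%) and floors of 3 counts cover counting error only. White root and mature leaf libraries differ in Pi supply within a tissue, so their spread is not that of like replicates, and p-values measure the spread between these samples, which may be technical. The white roots at 1 and 10 uM Pi had the same rounded total, but 90.9% of transcripts differed between them. The members, comparisons and the rule for named genes were chosen with earlier results of these data known. Named genes have the largest rule difference, the highest day 12 level, the extreme ratios of day 12 to day 7 and of white to late cluster root, the largest isoform change, or the largest called fold changes (mean log2 CPM at least 2, ranges apart), 2 a direction; others are marked as chosen after their values were seen. No marker list could be matched to unnamed IDs.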

Additional observations from a re-analysis of the deposited data

How the results depend on the processing

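The list held 34 genes with DESeq2 size factors (31 of the 33), 46 with plain CPM (28) and 33 and 34 with pseudocounts of 0.5 and 2 (29 each). Applied to transcripts, the rule took 68, and their genes included 28 of the 33. These 28 were 49.1% of the genes found that way. Without cluster root day 0, 1, 4, 7 or 12 the list held 34, 40, 96, 150 (387 before the limit of 150 genes) or 46 genes. Leaving out a day can only loosen the rule, so all 33 had to meet it each time. Their presence is therefore no evidence that the list is stable. Without day 7 the limit of 150 genes kept 26 of the 33. Day 12 was 2-fold above day 7 in 23 to 25 of the 33, and the counts of genes with white roots all above early, all below late or at least 4-fold below late cluster roots stayed within 1.5 times with DESeq2 size factors, plain CPM and any 1 white root left out; the other position counts were not recomputed. White root against mature leaf gave 14 to 22 of the 33 genes in the alternatives that keep all libraries and 11 without white root 50 uM Pi, the lowest of 11 to 20 when single libraries were left out. All were higher in white roots, except 1 of the 20 without mature leaf 50 uM Pi.

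The count of 13 genes with the white root at 1 uM Pi 2-fold highest, chosen after seeing the data, was also 13 with DESeq2 size factors and with plain CPM. Of all genes, the Pi slope called 254 (DESeq2), 3 (no filter), 0 (transcripts) and 0 to 67 (single libraries left out) in white roots. In mature leaves it called 1054, 72, 0 and 0 to 219. Their difference called 392 (DESeq2), 1 (DESeq2 size factors in edgeR, and the stricter filter), 7 (no filter) and 0 to 103. Of the 33 genes DESeq2 called 4 in mature leaves and 1 for the difference. Hydroponic against stage M leaf called 2717 genes for transcripts (1 of the 33) and 2647 to 5371 with single libraries left out (0 to 2 of the 33). With DESeq2, 28% of the calls in white roots rose, and 60.2% in mature leaves against 97.2% with edgeR. None of the 3 genes named for a tested difference by the rule changed direction in any alternative run. With Pi supply as the replicate block, added after seeing the data, white root against mature leaf called 8368 genes against 9892, and 16 of the 33 against 18, all 16 higher in white roots. The other comparisons have no shared numbers to pair. Wild leaf stage 4 and M libraries, where 3 counts are 1.67 to 2.94 CPM, limit what could be seen there.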
